A study of Mus musculus with 6 samples.

Results

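Border-associated macrophages are the resident macrophages of the outer borders and vessels of the brain. They sit in the meninges, in the spaces around penetrating vessels and in the stroma and surface of the choroid plexus, whereas microglia occupy the tissue itself. Both derive from yolk sac progenitors and depend on the receptor encoded by Csf1r, and border-associated macrophages are known for the uptake of proteins, lipids and debris from the cerebrospinal fluid and from perivascular fluid. In the forebrain of mice at postnatal day 16, 167 of 75867 nuclei were assigned to this cell type from their own counts. A nucleus was taken when it held at least 3 unique molecular identifiers (UMIs, each a captured RNA molecule) of Mrc1, F13a1 and Cd163 together, with at least 2 of these 3 genes detected. It could carry at most 1 UMI of Gpnmb and Lgals3, at most 1 of the endothelial genes Flt1 and Cldn5, and at most 1 of the neuronal genes Slc17a7, Slc17a6, Gad1 and Gad2. The levels of these genes therefore describe the choice and are no result, and every other difference from the remaining nuclei is likewise a description of nuclei picked by expression, with no test.

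The study compared WT mice with littermates homozygous for a loss-of-function allele of Npc1 (Npc1-/-), the gene of the transporter that moves cholesterol out of the lysosome, with 3 mice of each genotype. The allele was the spontaneous Npc1nih mutation, the mice were F1 hybrids of BALB/cJ and C57BL6/J parents, and no treatment was given to either group. The forebrain was flash frozen, nuclei were freed with a Dounce homogenizer, and each was tagged in a droplet by 10x Genomics 3′ chemistry (single-nucleus RNA sequencing, snRNA-seq). The deposited counts joined 6 libraries whose barcodes end in a suffix from 1 to 6, and the sources used here do not tie a suffix to a mouse. WT and Npc1-/- nuclei were therefore not compared, all nuclei were treated as 1 sample, and libraries are named by suffix.

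Libraries held 8217 to 16118 barcodes and 51343653 to 107583300 UMIs, and their median depth was 4471 to 5439 UMIs per nucleus. Nuclei with a mitochondrial share of 10% or more, 11 in all, were left out. Of the barcodes' 16-base sequences, 631 occurred in more than 1 library, which involved 1 member, and no member shared its barcode with another member. No doublet caller was run, and markers of other cell types are reported below in its place.

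The 167 members carried 543601 UMIs, with a median of 2614 UMIs and 1762 genes per nucleus, so that a gene without a UMI among them was limited to a level of up to 5.52 CPM (counts scaled to 1e+06 UMIs per group, with 3 UMIs taken as the limit that a count of 0 allows). Of all nuclei, 331 met the demand for Mrc1, F13a1 and Cd163. Among these, 24 exceeded the limit for Gpnmb and Lgals3, 73 that for Flt1 and Cldn5 and 111 that for the neuronal genes, and 41 exceeded more than 1 limit. A member held a median of 14 and at most 62 UMIs of the 3 defining genes. Just inside the threshold, 6 members held exactly 3 UMIs, and just outside it 25 nuclei held 2 UMIs of 2 genes and 38 held 3 or more UMIs of 1 gene. The level of Rbpj, a gene the rule did not use, was 665 CPM in the 6 members at the threshold and 2446 CPM in the other 161, and it was 49.0 CPM and 188 CPM in the outside groups of 25 and 38 nuclei.

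The defining genes mark a scavenging macrophage. Mrc1 (ENSMUSG00000026712, chr2:14229392-14332057, build GRCm38 here and throughout) encodes the mannose receptor, F13a1 (ENSMUSG00000039109, chr13:36867178-37050244) the catalytic chain of coagulation factor XIII, and Cd163 (ENSMUSG00000008845, chr6:124304656-124330527) the receptor for haptoglobin-bound haemoglobin. Mrc1 was detected in all 167 members, F13a1 in 157 and Cd163 in 103. All 3 genes were found together in 93 members, Mrc1 and F13a1 without Cd163 in 64, and Mrc1 and Cd163 without F13a1 in 10. The level of Mrc1 in libraries 1 to 6 was 2848, 2291, 1494, 1909, 2095 and 2721 CPM, that of F13a1 was 2422, 2032, 1102, 2772, 2301 and 4626 CPM and that of Cd163 was 645, 419.9, 290.0, 257, 452 and 194 CPM. Because these genes chose the nuclei, their presence in every library describes the choice and is no result. The level of F13a1 ranged more widely than that of Mrc1 between libraries.

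Members were rare in every library, and their share differed between libraries. Libraries 1 to 6 held 32, 47, 18, 12, 46 and 12 members. As shares of all nuclei these were 0.232%, 0.292%, 0.122%, 0.0984%, 0.426% and 0.146%, against 0.220% over all libraries (95% exact Clopper-Pearson interval 0.188 to 0.256%). The highest share, in library 5, had an interval of 0.312 to 0.568%, and the lowest, in library 4, had one of 0.0509 to 0.172%, so that these did not overlap. These intervals, like all others given here, account for the sampling of molecules or nuclei alone, that is for counting error only, and say nothing of how mice vary. Relative to 100 microglia nuclei, chosen by at least 3 UMIs and at least 2 genes of P2ry12, Tmem119 and Siglech with the same limits on other cell types and at most 1 UMI of the defining genes, the libraries held 22.5, 32.9, 11.8, 11.3, 44.2 and 10.4 members. Library 5 was highest and libraries 3, 4 and 6 were lowest on both scales. The number of microglia nuclei varied less, from 104 to 153 per library and 763 in all. Depth differed as well, with a median of 1670.5 UMIs per member in library 6 and 4223 in library 4, and its part in the shares was not tested.

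**Figure D1:**
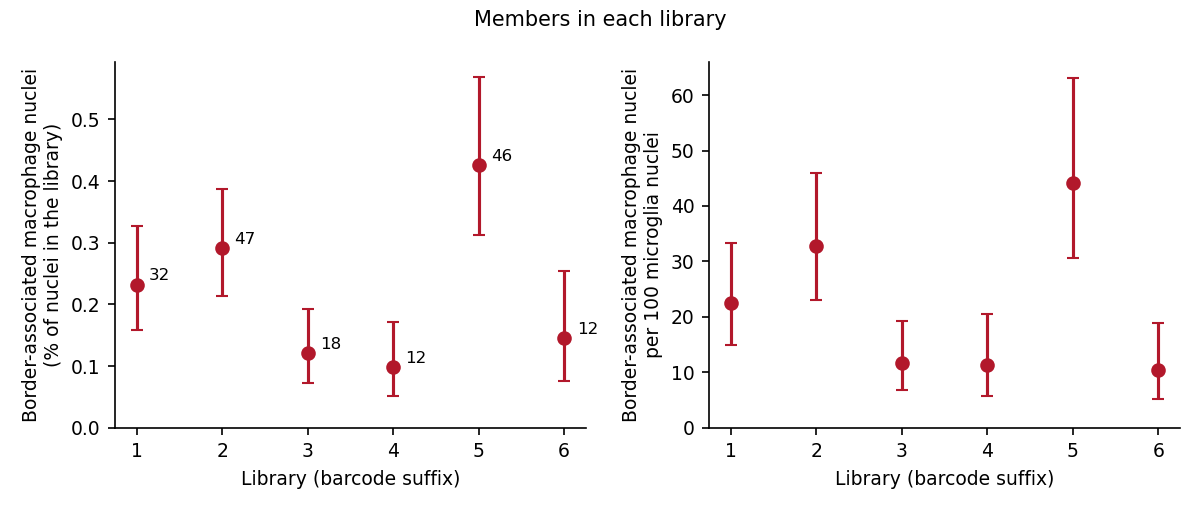
Left, members as a percentage of the nuclei of each library (y axis) by barcode suffix (x axis), with the number of members beside each point. Right, members per 100 microglia nuclei, and in both panels bars are 95% exact intervals for counting error, with library 5 highest at 0.426% and 44.2 per 100 microglia nuclei.

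The label was checked against genes outside the rule. A list of 16 macrophage identity genes held 1336 UMIs in the members, and of its 13 genes with a mean level of at least 10 CPM, 12 were at least 2-fold higher than in microglia nuclei and none was lower, where 6.74% of all genes compared were higher and 3.78% lower. A gene near 0 in microglia passes this filter only through the members and then has to be higher, so the count of each list here describes the nuclei and supports nothing by itself. Some genes belong to several of the lists. In the members 16990 of all 32285 genes had a UMI, so that genes at 0 were common and their count alone excludes no cell type. Part of the defining transcripts of blood cells stood at 0 UMIs in the members. These were 7 of 10 genes of the lymphocyte list (Cd3e, Cd3g, Nkg7, Cd79a, Cd79b, Pax5 and Ms4a1), 5 of 6 of the mast cell list (Cpa3, Mcpt4, Tpsb2, Cma1 and Hdc), 4 of 8 of the neutrophil list (S100a9, Retnlg, Ngp and Ltf), 4 of 8 of the monocyte list, among them Ly6c2, Chil3 and Treml4, and 3 of 7 of the dendritic cell list (Xcr1, Clec9a and Ccr7). The summed level of the lymphocyte list was 18.4 CPM, against 22.2 CPM in microglia nuclei, and it ranged from 0 to 43.5 CPM over the libraries. The monocyte list stood at 88.3 against 68.7 CPM. The mast cell list stood at 23.9 against 19.5 CPM. The neutrophil list was lower, at 51.5 against 207 CPM, through Csf3r, the receptor for granulocyte colony-stimulating factor, with 24 against 580 UMIs. The dendritic cell list was higher, at 99.3 against 47.2 CPM, through Zbtb46, with 88.3 against 20.8 CPM and detected in 13.1% of members and 3.20% of excitatory neuron nuclei after thinning to 1500 UMIs. Zbtb46 is also known from endothelium, where 31.1% of nuclei held it.

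Transcripts of other brain cells were present in the members. Neuronal markers were found in all 167 members with 2 or more UMIs and summed to 8962 CPM, against 11503 CPM in microglia and 21588 CPM in all other nuclei, whose median depth was 4965 UMIs. Astrocyte markers reached 2 UMIs in 135 members and summed to 2485 against 2686 CPM in microglia. Oligodendrocyte lineage markers reached 2 UMIs in 137 members and summed to 2969 against 2364 CPM, with a range over libraries of 233 to 4321 CPM. Each of these 3 lists was thus within 2-fold of microglia, while the neuronal list was lower and the oligodendrocyte list higher than in all other nuclei, where the latter stood at 1894 CPM. Markers of the border tissues in which these macrophages live are given next. Fibroblast markers, which define the meningeal and perivascular stroma, summed to 248 CPM in the members, 111 CPM in microglia and 2900 CPM in 300 fibroblast nuclei, and 18 members held 2 or more UMIs. Pericyte and smooth muscle markers summed to 305 against 175 CPM, with Myh11 at 0 UMIs. Choroid plexus epithelium markers summed to 940.0 against 679 CPM, mostly from Ttr, but were higher in members in only 2 of 6 libraries, and without library 2, whose members stood at 1630 CPM, the log2 ratio turned from 0.47 to -0.17. They reached 2 UMIs in 59.3% of members and 61.3% of microglia. Endothelial markers other than those of the rule summed to 256 against 210.2 CPM and ependymal markers to 60.7 against 92.3 CPM. Microglia markers of the microglia rule reached 2 UMIs in 26 members. When nuclei with 10 or more UMIs of any 1 of these glial, vascular, stromal or choroid plexus lists were left out, a limit chosen after the values were seen, 120 members remained.

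**Figure D2:**
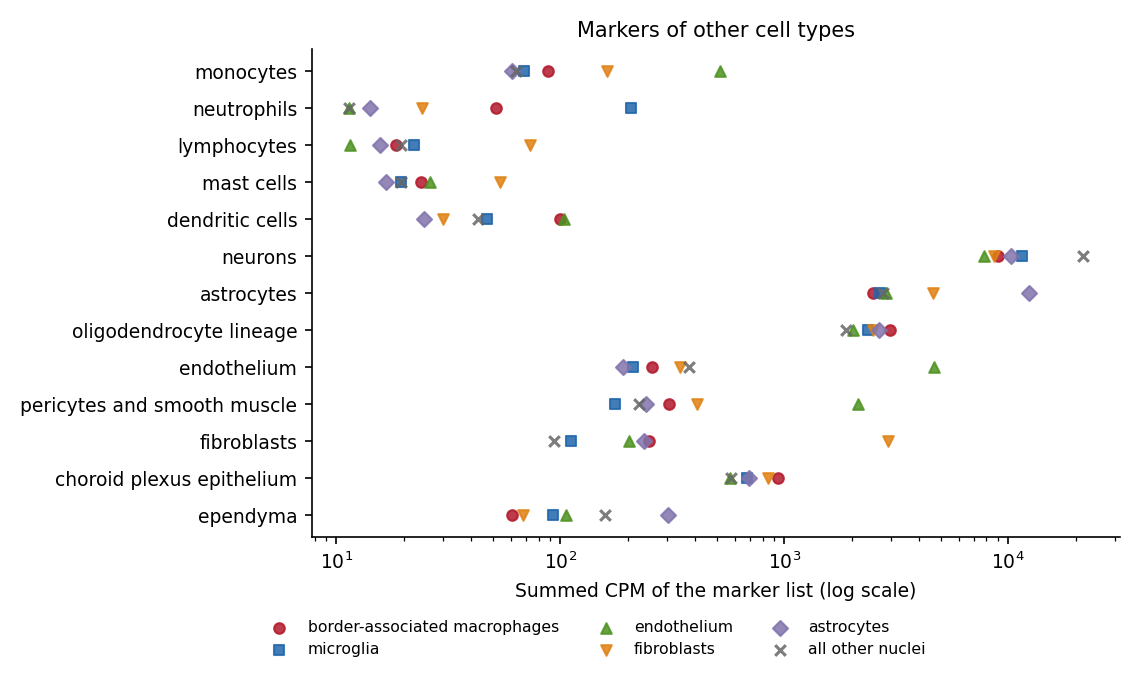
Summed level of each list of markers of another cell type (x axis, CPM on a log scale) in the members and in 4 other groups of nuclei and all other nuclei (symbols). Members lie close to microglia for the neuronal and astrocyte lists, at 8962 against 11503 CPM for neurons, and far below fibroblast nuclei for the fibroblast list, at 248 against 2900 CPM.

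The members were set against microglia nuclei, the other resident macrophage of the brain, to describe what distinguishes them beyond the genes of the rule. UMIs were summed over the nuclei of each group and scaled to CPM, and 11013 genes outside both rules had a mean level of at least 10 CPM. Of these, 742 (6.74%) were at least 2-fold higher in the members and 416 (3.78%) at least 2-fold lower. The 95% counting interval of the log2 ratio lay above 0 for 638 of the higher genes and below 0 for 315 of the lower genes. In 242 of the higher genes the members' level exceeded that of microglia in 6 of 6 libraries, and in 249 of the lower genes it was below it in 6 of 6. These are counts by size, with no replicate test, and the median log2 ratio of the genes compared was 0.09. The counts depend on the settings, with 607 higher and 510 lower when centred on the median ratio. With a stricter microglia rule they were 1466 and 918, and the closing section gives the other settings. The shares of 6.74% and 3.78% used throughout belong to the main setting.

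**Figure D3:**
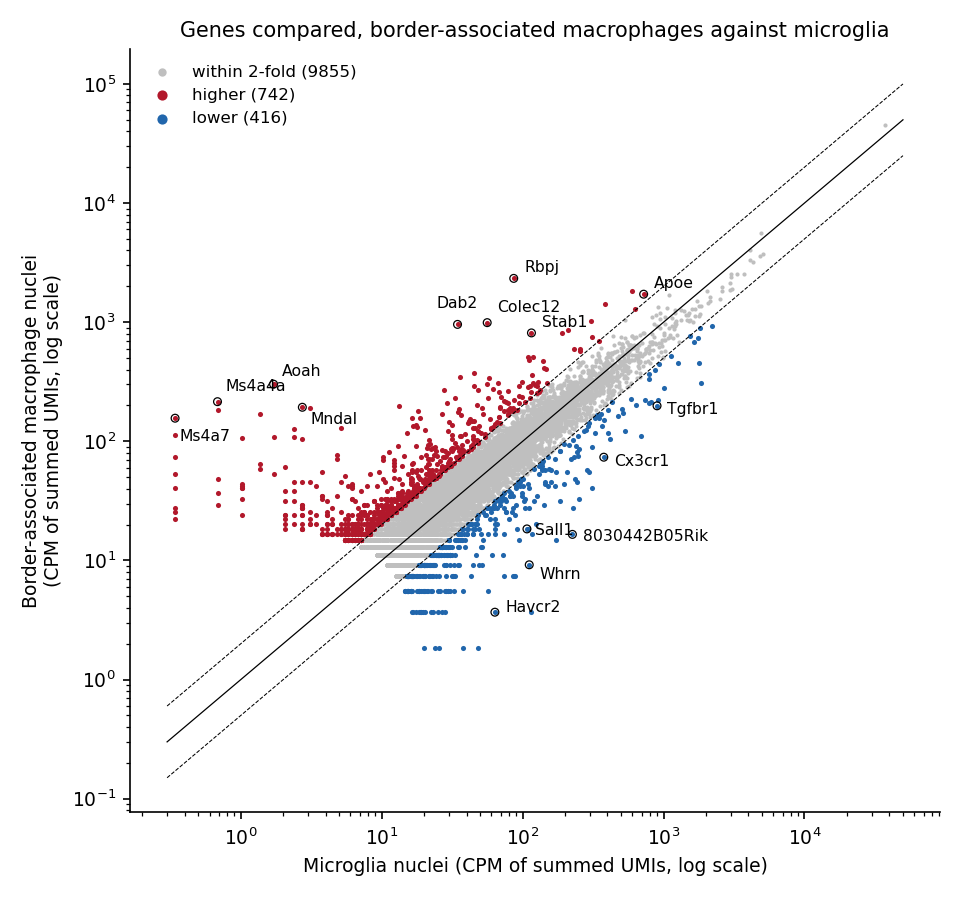
Level of each gene compared in the members (y axis) and in microglia nuclei (x axis), both as CPM of summed UMIs on log scales, with the line of equality and dashed lines at 2-fold. Red points are the 742 genes at least 2-fold higher and blue points the 416 at least 2-fold lower, and genes at 0 UMIs in either group are not drawn.

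The 25 named genes that were highest relative to microglia are given by family and role. A higher level in 6 of 6 libraries was a condition of the choice and is no result. For the 24 of the 25 genes with a UMI in microglia, the alternatives of the closing section that left more than 2 members were applied. All 370 values that could be computed were at least 2-fold. The genes were chosen for large ratios and the alternatives reuse the same nuclei, so that this outcome was largely set by the choice. Where libraries of members and microglia did not overlap for one of these genes, that too was largely set by the choice. The share of all genes compared without such overlap is not given here, so that a lack of overlap, here or below, describes single genes only. Among the 25 were 5 Ms4a genes, which encode small membrane proteins that span the membrane several times and are expressed on macrophages and lymphocytes. Ms4a7 (chr19:11321039-11336146) stood at 122, 124, 218, 165, 133 and 428 CPM in libraries 1 to 6 and was detected in 58 members, against 1 UMI in all microglia nuclei. Its level was 458-fold that of microglia, with a log2 ratio of 8.84 (6.32 to 14.16), where the range in parentheses is the 95% counting interval from the binomial distribution of the UMIs, as in all such ratios below. The groups did not overlap in any library, since microglia ranged from 0 to 3.07 CPM. Ms4a4a (chr19:11375523-11392790) stood at 316, 204, 58.0, 257, 233 and 194 CPM in the members and at 0 to 3.87 CPM in microglia, with library 3 lowest among the members. Ms4a6c stood at 146, 161, 116, 220.3, 233 and 389 CPM, Ms4a6b at 268, 117, 58.0, 91.8, 253 and 777 CPM and Ms4a6d at 109.6, 92.6, 116, 184, 213 and 428 CPM, each highest in library 6, whose members hold only 25726 UMIs, so that 3 UMIs there are 117 CPM. Microglia ranged from 0 to 8.82 CPM for Ms4a6c, 7.42 to 18.4 CPM for Ms4a6b and 8.90 to 33.8 CPM for Ms4a6d, below every library of the members. The cluster that holds the family, looked up after these values were seen, spans chr19:10962293-11640851 with 19 genes. Of these, 9 had a UMI in the members and 6 passed the filter of a mean of 10 CPM over the 2 groups, the 5 above and Ms4a14 with 11 UMIs against 0. With at most 16.4 CPM in microglia they passed largely through the members, so that their direction was set by the filter and is no result about the cluster. The lymphocyte gene Ms4a1 and the mast cell gene Ms4a2 of the same cluster were at 0 UMIs.

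A further 4 of the 25 encode interferon-inducible p200 proteins, nuclear and cytoplasmic proteins that bind DNA. Ifi207 (chr1:173723427-173741747) stood at 109.6, 154, 72.5, 128, 179.6 and 155 CPM in the members and at 0 UMIs in microglia, which makes it at least 138-fold higher against a floor of 3 UMIs over the microglia group. Ifi203 stood at 292, 124, 116, 239, 166 and 117 CPM, and microglia ranged from 0 to 3.25 CPM. Ifi202b stood at 134, 124, 58.0, 110.1, 106 and 38.9 CPM, and microglia ranged from 0 to 3.25 CPM. For each of these genes a higher level in every library was a condition of being named and is no result. Mndal stood at 193 against 2.73 CPM, but its annotated span holds Ifi211 and overlaps most of Ifi203 on the same strand, so that the counts of these genes may be divided between them and are uncertain. The cluster, again looked up after the values were seen, spans chr1:173350879-174031810 with 13 genes, of which 6 passed the filter. Ifi204, Ifi207, Mndal, Ifi203 and Ifi202b passed it only through the members, with 0 to 2.73 CPM in microglia, so that their number is no result about the cluster. The other gene was Aim2, the cytoplasmic sensor of double-stranded DNA, with 64.4 CPM in members and 98.4 CPM in microglia. Ddx60, a helicase of the antiviral response outside the cluster, stood at 207, 136, 276, 128, 166 and 272 CPM, against 5.87 to 39.9 CPM in microglia.

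Rbpj (chr5:53466152-53657362), the DNA-binding protein through which Notch receptors act on their target genes, had 1268 UMIs in 158 of 167 members. Its level was 3128, 2316, 1900, 2129, 2102 and 2838 CPM in libraries 1 to 6, and 65.1 to 101 CPM in microglia. The log2 ratio was 4.75 (4.56 to 4.95). The lowest library of the members lay far above the highest of microglia, and the 5 members with the most UMIs held 11% of the gene's UMIs. After thinning to 1500 UMIs, 89.7% of members, 12% of microglia and 7.25% of excitatory neuron nuclei held a UMI, and before it the shares were 94.6%, 24.4% and 40.6% at median depths of 2614, 2849 and 11443 UMIs.

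Genes of uptake came next. Dab2 (chr15:6299788-6440712), an adaptor that brings receptors into clathrin-coated pits, stood at 1023, 1050, 725, 716, 798 and 2255 CPM in the members and 20.8 to 79.3 CPM in microglia, with a log2 ratio of 4.80 (4.49 to 5.12). Colec12 (chr18:9707595-9882644), a scavenger receptor of the collectin family, stood at 1412, 877, 885, 1046, 758 and 1905 CPM and 26.7 to 88.2 CPM, with a log2 ratio of 4.14 (3.89 to 4.41). Both were highest in library 6 and overlapped with microglia in no library. Neither is restricted to these nuclei, since fibroblast nuclei held 717 CPM of Colec12 and endothelial nuclei 212 CPM of Dab2. Lilrb4a, an inhibitory receptor of the immunoglobulin superfamily, varied widely between libraries, at 12.2, 80.3, 261, 330.4, 66.5 and 349.8 CPM, with 0 to 9.22 CPM in microglia.

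Several of the 25 encode enzymes. Aoah (chr13:20794113-21036617), which removes acyl chains from bacterial lipopolysaccharide, stood at 414, 266, 334, 239, 286 and 311 CPM in the members and 0 to 4.88 CPM in microglia. Cbr2 (chr11:120729489-120732114), a carbonyl reductase, stood at 158, 92.6, 116, 165, 73.2 and 233 CPM against 0 to 1.63 CPM. Cmah, which makes the sialic acid N-glycolylneuraminic acid, stood at 146, 111, 102, 220.3, 46.6 and 117 CPM against 0 to 3.87 CPM. For all 3, each library of the members was above each library of microglia, which the choice of the genes largely set. Dse, an epimerase of dermatan sulfate synthesis, stood at 268, 321, 189, 202, 213 and 622 CPM against 11.7 to 61.5 CPM, and the metalloprotease Adam33 at 183, 86.5, 87.0, 73.4, 99.8 and 117 CPM against 0 to 6.15 CPM, in both cases without overlap.

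The remaining genes of the 25 were Vav3, a guanine nucleotide exchange factor, at 373 against 45.1 CPM, Arhgap15, which switches off Rac, at 346 against 36.2 CPM, Mdfic at 129 against 5.13 CPM and the uncharacterised genes F630028O10Rik at 184 against 0.684 CPM and Gm4951 at 109 against 2.39 CPM. F630028O10Rik hosts the microRNA gene Mir223 on the same strand, and Gm4951 overlaps Gm5970, so the symbols do not settle which transcript was counted. Bmp6, a bone morphogenetic protein, had 85 UMIs but in only 13 members, and the 5 highest held 84.7% of them. Its level of 156 CPM was also far below that of fibroblast nuclei, at 1023 CPM, and the part of fibroblast transcripts in it was not tested.

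**Figure D4:**
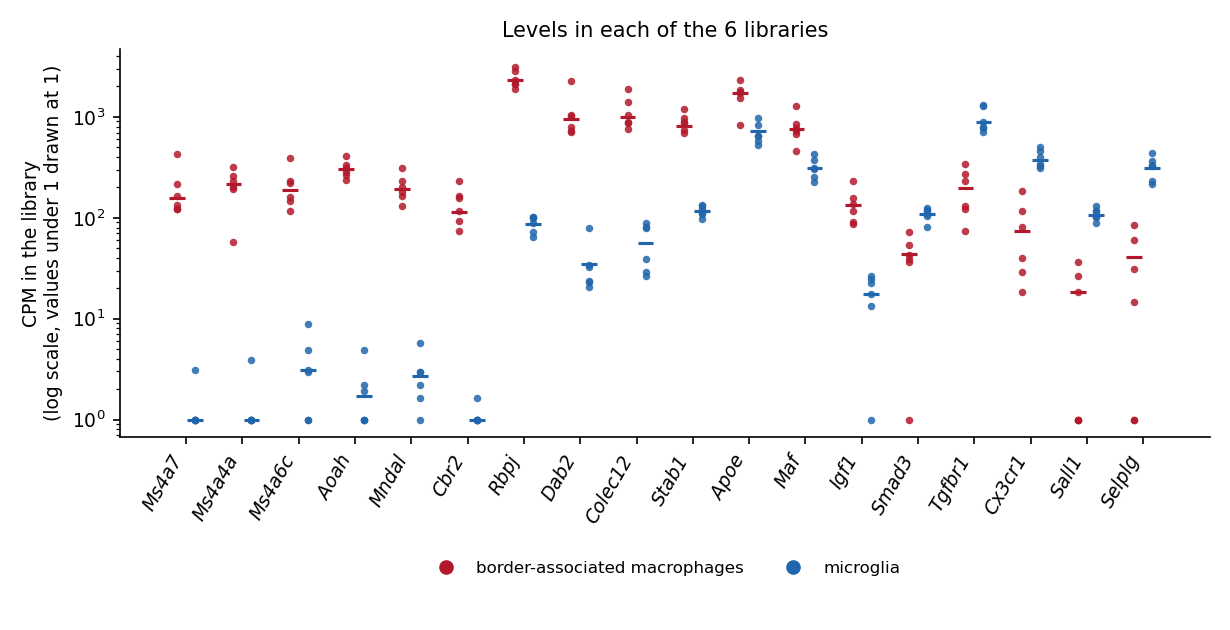
Level of 18 genes in each of the 6 libraries (points, CPM on a log y axis, values under 1 drawn at 1) in the members (red) and in microglia nuclei (blue), with dashes at the level over all libraries. The members lie above microglia for the first 13 genes, with overlap only for Apoe, whose lowest library of the members (826 CPM) is within the range of microglia, and below it for Smad3, Tgfbr1, Cx3cr1, Sall1 and Selplg.

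Ranked against all 75700 other nuclei rather than microglia alone, the 10 leading genes were Ms4a4a, Ifi202b, F630028O10Rik, Cbr2, Ifi207, Ms4a7, Ms4a6c, Ms4a6b, Aoah and Cmah, all of which were also among the 25. Ms4a4a stood at 0.378 CPM in all other nuclei, 569-fold below the members. Cmah, the last of the 10, stood at 0.619 CPM, 175-fold below. After thinning to 1500 UMIs, Ms4a4a was found in 26.2% of members and in no thinned nucleus of microglia, endothelium or excitatory neurons, and Aoah was found in 34.5% of members, 0.1% of endothelium and 0.150% of excitatory neurons.

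The 15 genes that were lowest relative to microglia included regulators of transcription and of the actin skeleton. A lower level in 6 of 6 libraries was a condition of their choice and is no result. Havcr2 (chr11:46454935-46481255), the inhibitory receptor TIM-3, had 2 UMIs in the members, both in library 6, and 186 in microglia. The other 5 libraries of the members had no UMI, and every library of microglia had some. Mlxipl, a glucose-responsive transcription factor, had 1 against 142 UMIs, Ebf3 had 1 against 70 and Dusp27 1 against 75. Whrn, a scaffold protein, stood at 9.20 against 111 CPM, Abi3, a regulator of actin branching, at 7.36 against 88.2 CPM, and the uncharacterised 8030442B05Rik, A830008E24Rik and Gm50035 at 16.6 against 226 CPM, 14.7 against 173 CPM and 3.68 against 114 CPM. Glrp1, Gm28286, Gm3739, Mlph and Rasal3 had no UMI in the members, which makes them at least 4.77-, 3.84-, 4.03-, 5.39- and 5.20-fold lower against a floor of 3 UMIs over the members. Rasal3, a regulator of Ras, ranged from 17.6 to 38.7 CPM in microglia.

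Promoter sequences are shown for 3 genes. F13a1 and Havcr2 hold the only exact matches, within the windows of the defining genes and of the 25 higher and 15 lower genes, to a site of the macrophage factor PU.1 (searched as GAGGAAGT on both strands), and Cbr2 holds a match to 1 arm of the palindromic MAF recognition element (TGCTGAC, both strands). Sequences are from RefSeq on GRCm38.p6, run 5′ to 3′ on the gene's own strand from 250 bases before to 50 bases after a start site, and the match is in capitals. The F13a1 window lies at chr13:37049164-37049463 on the minus strand, with the match at base 15 of the transcript, and the other F13a1 window, upstream, held none. The Cbr2 window lies at chr11:120731972-120732271 on the minus strand, with the match at base 41 on the opposite strand, and the Havcr2 window lies at chr11:46454681-46454980 on the plus strand, with the match 8 bases before the start.
F13a1: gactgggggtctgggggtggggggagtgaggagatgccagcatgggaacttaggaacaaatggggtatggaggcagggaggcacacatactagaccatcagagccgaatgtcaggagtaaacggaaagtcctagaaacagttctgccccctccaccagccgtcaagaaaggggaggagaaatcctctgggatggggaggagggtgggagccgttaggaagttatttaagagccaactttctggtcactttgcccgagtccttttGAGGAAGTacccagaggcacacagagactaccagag
Cbr2: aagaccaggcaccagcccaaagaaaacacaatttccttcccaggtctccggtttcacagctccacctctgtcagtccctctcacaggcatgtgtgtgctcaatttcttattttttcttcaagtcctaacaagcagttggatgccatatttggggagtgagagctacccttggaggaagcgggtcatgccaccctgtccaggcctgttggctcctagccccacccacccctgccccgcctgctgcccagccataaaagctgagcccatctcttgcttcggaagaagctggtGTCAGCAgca
Havcr2: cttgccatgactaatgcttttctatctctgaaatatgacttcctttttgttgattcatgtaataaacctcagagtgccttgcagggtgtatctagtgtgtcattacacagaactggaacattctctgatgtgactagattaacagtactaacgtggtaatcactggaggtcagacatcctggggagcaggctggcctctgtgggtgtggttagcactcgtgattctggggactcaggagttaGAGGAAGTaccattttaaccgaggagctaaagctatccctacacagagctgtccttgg

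Of the 25 higher genes 20 had a promoter window, and of the 15 lower genes 10. The PU.1 letters were in the window of none of the 20, 1 of the 10 and 3.69% of all 27025 genes with a window. The MAF arm was in 2 of the 20 (Cbr2 and Dse), in 1 of the 10 (Glrp1) and in 5.28% of all genes. The E-box CACGTG, which factors of lysosomal and lipid genes also bind, was in 2 of the 20 (Arhgap15 and Bmp6), in 3 of the 10 (Mlph, Mlxipl and Rasal3) and in 8.09% of all genes. These are matches of letters in short windows.

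Among the macrophage identity genes fixed as a list, several encode lectin receptors. Clec10a, a galactose-binding lectin, stood at 53.3 against 0.342 CPM, and Mgl2 and Clec4n had 21 and 20 UMIs in the members and 0 in microglia. Siglec1, the sialic acid receptor sialoadhesin, stood at 47.8 against 0.684 CPM, Cd36, a receptor for oxidised lipids, at 27.6 against 0.342 CPM, and Cd38 at 32 against 4 UMIs. The exception in this list was Mertk, a receptor for apoptotic cells, which stood at 511, 426, 435, 918, 446 and 544 CPM in the members and 874 to 1137 CPM in microglia. Its log2 ratio was -0.997 (-1.18 to -0.82), just within 2-fold, and library 4 of the members lay inside the range of microglia. The median log2 ratio of the list was 5.94, against 0.09 over all genes compared, and the log2 ratio of its summed level was 1.23 (1.13 to 1.32). The list summed to 2458 CPM in the members and 1782 CPM in the 14 nuclei kept out only by the limit on Gpnmb and Lgals3. Of 12 scavenger and endocytic receptors compared, 7 were at least 2-fold higher and none lower (6.74% and 3.78% over all genes), with a median log2 ratio of 2.24 and a summed ratio of 1.22 (1.14 to 1.29). All of the 7 but Msr1 also belong to the macrophage identity list or the Lyve1 subset list, so that these lists are not separate results. The scavenger receptor Stab1 (chr14:31139013-31168641) stood at 864, 741, 972, 899, 692 and 1205 CPM against 96.4 to 135 CPM and Msr1, a receptor for modified lipoproteins, at 64.4 against 1.37 CPM. Lrp1 lay within 2-fold, at a log2 ratio of -0.83 (-1.20 to -0.48), and Marco and Stab2 had no UMI in the members.

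Microglia identity genes were mostly lower in the members. The microglia were chosen by P2ry12, Tmem119 and Siglech, which are left out here. Of the 9 genes compared outside that rule 7 were at least 2-fold lower and none higher, where 3.78% of all genes were lower and 6.74% higher, and the 13 genes outside the rule gave a summed log2 ratio of -1.71 (-1.86 to -1.56), with a median of -2.36. Cx3cr1, the fractalkine receptor, stood at 183, 80.3, 29.0, 18.4, 39.9 and 117 CPM against 313 to 508 CPM, and Sall1, a transcription factor of microglia, at 36.5, 18.5, 0, 0, 26.6 and 0 CPM against 89.0 to 132 CPM. The values overlapped for neither gene, but 3 UMIs in library 6 of the members would be 117 CPM. That is inside the range of microglia for Sall1, so that 0 UMIs there do not place it below microglia. Fcrls and Sparc lay within 2-fold, at log2 ratios of -0.45 (-0.83 to -0.09) and -0.18 (-0.48 to 0.11). Of the pan-myeloid genes 14 of 16 lay within 2-fold, as did most genes compared, of which 6.74% were higher and 3.78% lower. Their median log2 ratio was 0.13 and their summed ratio was of the other sign, at -0.27 (-0.35 to -0.19). Over the alternatives the summed ratio ranged from -0.46 to 0.02. C1qa, C1qb and C1qc, the chains of complement C1q, were at log2 ratios of 0.59, 0.48 and 0.60, Csf1r at -0.43 (-0.70 to -0.16) and Ptprc, the pan-leukocyte marker CD45, at 0.90 (0.55 to 1.24). The exceptions were Itgam at -1.85 (-2.52 to -1.25) and Inpp5d at -1.06 (-1.25 to -0.87), both lower.

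Because the study concerns a transporter of lysosomal cholesterol, the genes of cholesterol handling are given over all nuclei, with both genotypes mixed in unknown parts. Npc1 (chr18:12189692-12236400) had 42 UMIs in 33 members, at 134, 86.5, 29.0, 55.1, 73.2 and 38.9 CPM in libraries 1 to 6, against 41.9 to 103 CPM in microglia. The ranges overlapped, and the log2 ratio was 0.30 (-0.22 to 0.79). Npc2, the luminal protein that hands cholesterol to NPC1, stood at 88.3 against 54.7 CPM, a log2 ratio of 0.69 (0.19 to 1.16). Of 12 genes of lysosomal cholesterol egress compared none was 2-fold higher or lower, with a median of 0.10 and a summed ratio of 0.18 (0.05 to 0.31) that was 0.00 after thinning. Of 16 genes of cholesterol synthesis 15 lay within 2-fold, and the exception was Lss, lanosterol synthase, at 1.34 (0.34 to 2.26) from 15 UMIs. The median of that list was 0.31 and its summed ratio 0.31 (0.14 to 0.48). These counts are near the background of 6.74% higher and 3.78% lower over all genes compared.

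Among the genes of sterol uptake and export, Apoe led by UMIs. Apoe (chr7:19696109-19699188), the main carrier of lipids in the brain, stood at 1534, 1760, 2306, 826, 1829 and 1710 CPM in the members and 529 to 974 CPM in microglia, a log2 ratio of 1.25 (1.14 to 1.36), with library 4 lowest. Of its 934 UMIs, 108 lay in 1 member and 22.8% in 5, and Apoe was detected in 87.1% of excitatory neuron nuclei before and 31.2% after thinning, against 82.8% of thinned members. Mylip, a ubiquitin ligase, stood at 57.0 against 159 CPM and was at least 2-fold lower. Abca1, which exports cholesterol to lipoproteins, lay within 2-fold at 0.72 (0.47 to 0.95). The list as a whole had 2 genes higher, 1 lower and 12 within 2-fold, near the background of 6.74% and 3.78%, with a median of 0.28 and a summed ratio of 0.70 (0.62 to 0.79), in which Apoe makes up 934 of the 1540 UMIs.

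Lysosomal enzymes lay on both sides of microglia. Ctsc, which activates granule proteases, stood at 353, 253, 189, 55.1, 239 and 155 CPM against 23.5 to 55.3 CPM and Ctsb at 289 against 127 CPM, both at least 2-fold higher. Lgmn, a cysteine protease at 169 against 362 CPM, was at least 2-fold lower. Of 21 genes compared 2 were higher, 2 lower and 17 within 2-fold (6.74% higher and 3.78% lower over all genes), with a median of 0.27 and a summed ratio of the other sign, -0.18 (-0.26 to -0.09), which ranged from -0.38 to 0.03 over the alternatives. Of 8 lipid-associated phagocyte genes compared, Apoe, Igf1 and Plin2, which coats lipid droplets and stood at 66.2 against 12.3 CPM, were higher and Trem2, a lipid-binding receptor at 25.8 against 52.6 CPM, was lower (6.74% higher and 3.78% lower over all genes), with a median of 0.35 and a summed ratio of 1.09 (0.99 to 1.19), in which Apoe makes up 934 of the 1241 UMIs. Clec7a, a gene of this list, was not analysed here.

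Of 11 iron and haem handling genes compared, 5 were at least 2-fold higher, 6 lay within 2-fold and none was lower, where 6.74% of all genes were higher, with a median of 0.94 and a summed ratio of 1.09 (0.96 to 1.22). Slc40a1, the iron exporter ferroportin, stood at 243, 161, 218, 55.1, 93.1 and 194 CPM against 46.3 to 99.8 CPM, with libraries 4 and 5 of the members inside the range of microglia. Cp, the ferroxidase ceruloplasmin, stood at 329, 204, 87.0, 147, 233 and 194 CPM against 11 to 55.8 CPM, without overlap. Blvrb, a biliverdin reductase, was at a log2 ratio of 1.94 (1.37 to 2.50), and the ferritin chains Fth1 and Ftl1 were within 2-fold at 0.76 (0.54 to 0.97) and 0.94 (0.51 to 1.36). Hmox1, haem oxygenase, had 6 UMIs and Hamp none.

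**Figure D5:**
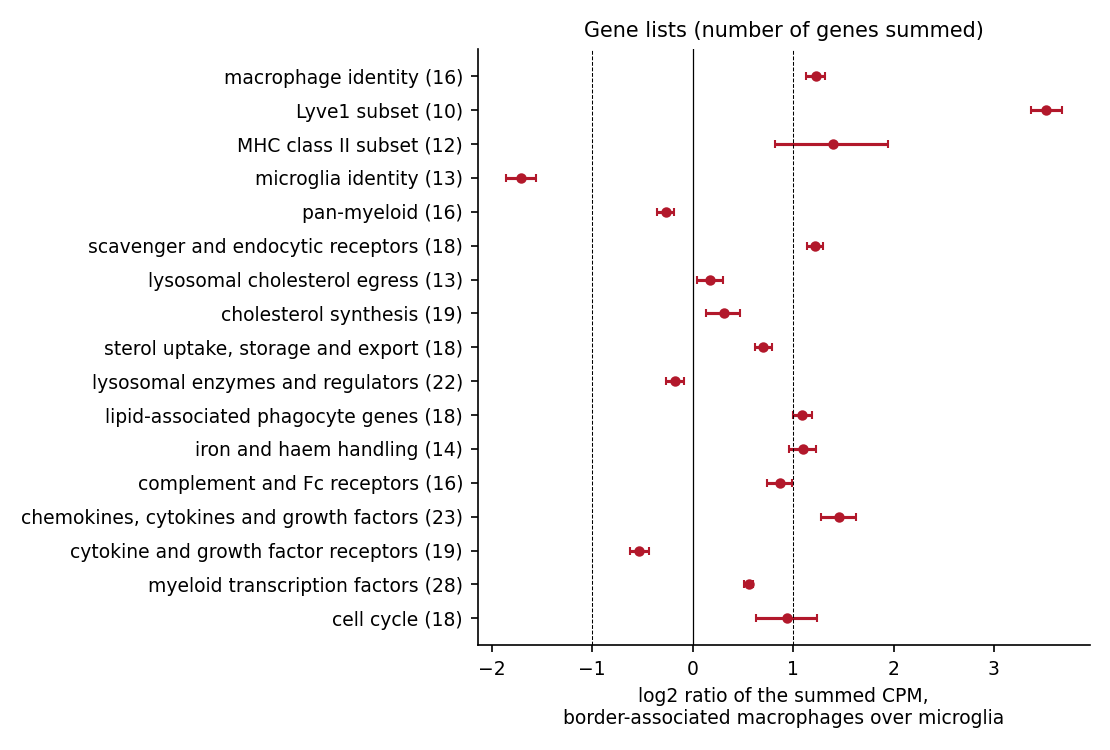
Log2 ratio of the summed CPM of each gene list other than the cell type markers in the members over microglia nuclei (x axis), with the number of genes summed in parentheses, genes of either rule left out, bars for the 95% counting interval and dashed lines at 2-fold. The Lyve1 subset list is highest at 3.52 and the microglia identity list lowest at -1.71, while the lists of lysosomal cholesterol egress (0.18) and lysosomal enzymes (-0.18) lie near 0.

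Of the complement and Fc receptor genes 5 of 13 were at least 2-fold higher and 1, Itgam, lower, where 6.74% and 3.78% of all genes were, with a median of 0.61 and a summed ratio of 0.86 (0.74 to 0.99). Fcgr2b, the inhibitory Fc receptor for IgG, stood at 134, 129.7, 116, 91.8, 86.5 and 233 CPM against 6.61 to 24.4 CPM. Every library of the members was above every library of microglia. C5ar1, the receptor for C5a, stood at 51.5 against 5.47 CPM, C4b at 29.4 against 7.52 CPM and Fcgrt, the neonatal Fc receptor, at 62.5 against 14 CPM.

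Ligands were sparse, and only 8 of 23 chemokine, cytokine and growth factor genes could be compared. Of these 5 were at least 2-fold higher, where 6.74% of all genes were, 3 lay within 2-fold and none was lower, with a median of 1.64, and the 23 genes gave a summed ratio of 1.45 (1.27 to 1.63). Igf1, insulin-like growth factor 1, stood at 158, 136, 232, 91.8, 86.5 and 117 CPM against 0 to 26.4 CPM, without overlap. Gas6, a ligand of Mertk and Axl, stood at 143 against 40.7 CPM, Pdgfc at 134 against 48.9 CPM and Il16 at 73.6 against 10.3 CPM. Chemokines were counted in few nuclei. Ccl12 had 14 UMIs, of which 5 members held 78.6%, Cxcl2 had 8 UMIs, all in 1 member, and Ccl2, Ccl7 and Ccl8 had 9, 3 and 4 UMIs against 0 in microglia. Il1b and Il10 had no UMI in either group.

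Receptors lay on both sides, 5 of 18 at least 2-fold higher and 5 lower (6.74% and 3.78% over all genes), with a median of 0.00 and a summed ratio of -0.53 (-0.63 to -0.44). Tgfbr1, a receptor for transforming growth factor beta, stood at 341, 124, 131, 73.4, 273 and 233 CPM against 708 to 1312 CPM, lower without overlap. Smad3, which carries the signal of Tgfbr1 to the nucleus, was lower as well, at 73.0, 43.2, 0, 36.7, 53.2 and 38.9 CPM against 81.5 to 124 CPM, while the co-receptor Tgfbr2 lay within 2-fold at -0.15 (-0.48 to 0.18). In library 6 of the members 3 UMIs would be 117 CPM, inside the range of microglia for Smad3. Nrp1, a receptor for semaphorins and vascular endothelial growth factor, stood at 365, 371, 696, 642, 372 and 1088 CPM against 92.0 to 181 CPM, higher without overlap, and Nrp2 at 139.8 against 63.2 CPM. Ccr1 stood at 23.9 against 2.39 CPM, Il4ra, a receptor chain for interleukin 4, at 18.4 against 6.15 CPM and Csf2rb at 35 against 16.7 CPM, the last with 0 UMIs in libraries 3 and 4. Il10ra and Il21r were lower, at -1.62 (-2.48 to -0.88) and -1.19 (-2.44 to -0.15).

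Among the transcription factors 4 of 23 were at least 2-fold higher, namely Rbpj, Maf, Id2 and Klf4, and 4 lower, among them Sall1, Sall3 and Smad3 (6.74% and 3.78% over all genes), with a median of 0.24 and a summed ratio of 0.56 (0.51 to 0.60). Rbpj alone made up 2333 of the 9150 CPM of this list in the members and 86.5 of the 6208 CPM in microglia. The 15 within 2-fold included Spi1, the gene of PU.1, at 0.24 (-0.22 to 0.69), Runx1 at 0.35 (0.15 to 0.54) and Irf8 at -0.69 (-1.34 to -0.10). Maf (chr8:115682942-115707794), which binds the MAF recognition element, stood at 779, 673, 725, 459, 851 and 1283 CPM in the members and 228 to 424 CPM in microglia, a log2 ratio of 1.28 (1.11 to 1.45). Klf4 rested on 12 UMIs against 25 and turned to -0.16 among members with 0 UMIs of every excluded gene. Cell cycle genes were mostly below 10 CPM. Of 4 compared, Cenpf, a kinetochore protein of dividing cells, stood at 40.5 against 6.15 CPM and Pola1, the catalytic subunit of DNA polymerase alpha, at 101 against 47.8 CPM, while Top2a lay within 2-fold at -0.29 (-2.01 to 1.07) and Mki67 had 3 UMIs in the members. The 18 genes gave a summed ratio of 0.94 (0.63 to 1.24).

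Border-associated macrophages are commonly divided into cells with Lyve1, the hyaluronan receptor typical of vessels and leptomeninges, and cells with high MHC class II, typical of the dura and choroid plexus. Lyve1 (chr7:110850607-110863239) had 40 UMIs in 33 members, at 60.9, 30.9, 131, 73.4, 93.1 and 117 CPM in libraries 1 to 6, against 1 UMI in microglia. It was detected in 19.8% of members and 0.275% of excitatory neurons, at median depths of 2614 and 11443 UMIs, and after thinning in 7.59% and 0.0500%. Of the list of 10 Lyve1 subset genes 4 were compared and were at least 2-fold higher, where 6.74% of all genes were, with a summed ratio of 3.52 (3.37 to 3.68). At least 1 UMI of the list was found in 154 members (92.2%), but also in 43.6% of microglia and 43.3% of endothelial nuclei, mostly through Stab1 and Colec12. Without those, Folr2 and Siglec1, a choice made after the values were seen, 48 members (28.7%, interval 22.0 to 36.2%) held a UMI of Lyve1, Cd209b, Cd209f, Cd209g, Timd4 or Fcna, against 0.262% of microglia, and after thinning 13.8% of members and 0.275% of microglia did. Timd4 was counted with 3 UMIs and Cd209f with 8, against 0 for both in microglia.

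MHC class II transcripts were rare. The 12 genes of that list had 41 UMIs in the members, and none had a mean of 10 CPM over the 2 groups. Of the members, 17 (10.2%, interval 6.04 to 15.8%) held a UMI of the list, against 9.44% of microglia, and after thinning 7.59% of members and 4.26% of microglia did. Summed over the list the log2 ratio was 1.39 (0.82 to 1.95), and it turned to -1.53 when only the 93 members with all 3 defining genes were counted, with 3 UMIs left. Among the 120 members without 10 or more UMIs of another cell type's list it was 0.11, with 11 UMIs left, so that most of the UMIs of the list lay in the nuclei this leaves out. Members were above microglia in 3 and below it in 3 of the 6, and ranged from 0 to 233 CPM. The antigen-presenting core of the list, Cd74, H2-Aa, H2-Ab1 and H2-Eb1, had 10, 3, 5 and 1 UMIs, held by 9 members in 3 libraries.

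These UMIs were concentrated in the 10 members without F13a1, a split made after the values were seen. These 10 nuclei, 2, 2, 3, 0, 2 and 1 in libraries 1 to 6, held 12 of the 19 UMIs of the 4 core genes, or 396 CPM (exact Poisson interval 205 to 692), against 7 UMIs or 13.6 CPM in the 157 members with F13a1. The log2 ratio was 4.86 (3.4 to 6.44). The 12 UMIs lay in 4 nuclei from 3 libraries, with at most 4 in any nucleus. Of the 10 nuclei, 6 were among the 120 members without 10 or more UMIs of another cell type's list, and these held 2 of the 12 UMIs, against 4 UMIs in 114 members with F13a1, a log2 ratio of 2.96 (-0.50 to 5.77) whose interval includes 0. The part of other cells' transcripts in the split was not tested. In all members the whole MHC class II list went the same way, with 24 UMIs against 17 and a log2 ratio of 4.58 (3.62 to 5.57), and in the 120 it stood at 2 against 9 UMIs, with a log2 ratio of 1.80 (-1.45 to 4.07). Lyve1 stood at 0 UMIs in the 10 nuclei, where 3 UMIs would be 99.1 CPM, and at 77.9 CPM in the 157, so that a difference was not detectable at this depth. Apoe was higher in the members without F13a1, at 3005 against 1642 CPM and a log2 ratio of 0.87 (0.54 to 1.18). Ms4a4a, with 1 UMI against 116, and Dab2, with a log2 ratio of -0.99 (-1.84 to -0.26), were lower. The macrophage identity list was lower as well, at -0.63 (-1.07 to -0.22) in all members and -0.68 (-1.20 to -0.20) in the 120. The pan-myeloid list stood at 0.32 (-0.003 to 0.63) in all members, an interval that included 0. Ms4a7 and Colec12 had intervals that included 0, at 0.82 (-0.45 to 1.87) and 0.05 (-0.52 to 0.57). Dendritic cell markers stood at 8 UMIs against 46, a log2 ratio of 1.56 (0.26 to 2.66), but at 0 against 27 in the 120 members, and monocyte markers at 6 against 42, 1.28 (-0.25 to 2.52). Astrocyte markers were at 0.44 (0.13 to 0.73), oligodendrocyte lineage markers at -0.61 (-1.01 to -0.24) and choroid plexus markers at -0.69 (-1.46 to -0.02). Their part in the difference was not tested, and Xcr1, Clec9a and Ccr7 were at 0 UMIs in all members. P2ry12 had 0 UMIs in the 10 nuclei, where 3 UMIs would be 99.1 CPM, and 65 UMIs or 127 CPM in the 157. The upper end of its log2 interval was -0.01, so that the difference was near the limit of this depth.

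The members were also divided by Cd163. Members with Cd163 (103) and without it (64) had median depths of 2614 and 2594 UMIs. Lyve1 stood at 78.3 CPM in members with and 66.2 CPM in members without Cd163, a log2 ratio of 0.24 (-0.75 to 1.29), so that no difference was detectable at this depth. Rbpj and Apoe were slightly higher in members with Cd163, by 0.40 (0.23 to 0.58) and 0.37 (0.17 to 0.57). Ms4a7 and Maf had intervals that included 0, at 0.00 (-0.65 to 0.68) and 0.05 (-0.25 to 0.34). Markers of other cells differed as well. Fibroblast markers were higher with Cd163, by 1.28 (0.67 to 1.94), and choroid plexus markers lower, by -0.88 (-1.14 to -0.63). Among the 120 members without 10 or more UMIs of another cell type's list these ratios were 0.68 (-0.12 to 1.53) and 0.08 (-0.29 to 0.46). Neuronal markers were lower with Cd163, by -0.51 (-0.59 to -0.43) in all members and -0.32 (-0.43 to -0.21) in the 120. Oligodendrocyte lineage markers were higher, by 0.72 (0.56 to 0.88) and 0.33 (0.03 to 0.64), and astrocyte markers stood at 0.07 (-0.09 to 0.23) and 0.36 (0.05 to 0.68).

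The limit on Gpnmb and Lgals3, genes of lipid-laden macrophages, kept out 14 nuclei that met every other part of the rule with 2 or more UMIs of these genes. They came from libraries 1, 3, 4 and 6, with 2, 7, 2 and 3 nuclei, and held 60611 UMIs at a median of 3750 per nucleus. In this small group 10 CPM was under 1 UMI, so no count of genes by fold was made. Among the 15 genes with at least 50 UMIs that were highest relative to the members, Apobec1, a cytidine deaminase that edits RNA, stood at 907 against 105 CPM in the members, a log2 ratio of 3.11 (2.55 to 3.67). Mitf, a transcription factor that drives lysosomal genes and Gpnmb, stood at 874 against 261 CPM, a log2 ratio of 1.74 (1.26 to 2.21). Several of the 15, among them Kcnc2, Galntl6, Cacna1a, Fgf12 and Cntnap2, are genes of neurons, with 1534 CPM of Galntl6 in the 14 nuclei and 1142 CPM in excitatory neuron nuclei, and the rest had smaller ratios, from 0.49 (0.05 to 0.90) for Actb to 1.29 (0.80 to 1.74) for Pitpnc1. Of the genes named for the members, Rbpj was lower in the 14 nuclei at -1.90 (-2.40 to -1.43), as were Stab1 at -1.16 (-1.85 to -0.55) and Dab2 at -0.91 (-1.48 to -0.38). Lysosomal enzymes summed to 5511 CPM in the 14 nuclei and 2287 CPM in the members. Of these 14 nuclei 7 came from library 3, and the part of that library in these values was not tested.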

How the data were processed

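Single-nucleus RNA sequencing was performed on frozen forebrain of 3 WT and 3 Npc1-/- mice, with 1 library per mouse. The deposited matrix gives unnormalized UMI counts, whole numbers for each gene in each barcode, as the authors' Cell Ranger run wrote them. Its header names Cell Ranger 6.0.0, the submitters' processing notes name Cell Ranger 2.1.1 and mm10, and the authors' methods list STARsolo on GRCm38, EmptyDrops, DoubletFinder, a mitochondrial limit of 10%, a filter on rare genes and imputation. The whole-number counts are not imputed values, and 11 barcodes had a mitochondrial share of 10% or more, so that limit had not been applied to the matrix. The sources used here do not say which of the other steps the matrix went through.

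Nuclei were chosen on their raw counts, without clustering, imputation or a doublet caller. UMIs were summed over each group of nuclei and scaled to CPM of all UMIs of the group. Genes with a mean of at least 10 CPM in the pair of groups were compared, genes of either rule were left out, and 2-fold was the call. Sums carry exact Poisson intervals, shares exact Clopper-Pearson intervals and ratios exact binomial intervals, at 95%. No p-value was computed, because all nuclei count as 1 sample. For shares of nuclei with a UMI, each nucleus was also thinned to 1500 UMIs, which left out 22 of the 167 members and 35 of the 763 microglia nuclei, and at most 2000 nuclei of other groups were used. The script was tested on simulated data. Of 32285 gene identifiers, 32158 matched the GENCODE annotation of GRCm38, from which coordinates and overlaps were taken. The counting was not stated to use strand. Python 3.11.15, numpy 2.4.6, scipy 1.17.1 and pandas 2.3.3 were used.

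The members, gene lists and comparisons were chosen with earlier results of these data known. Genes were named by rule: the defining genes, the 25 of largest ratio over microglia nuclei with at least 50 UMIs and higher in 6 of 6 libraries, the 15 of smallest ratio with at least 50 UMIs in microglia and lower in 6 of 6, the 15 of largest ratio in Gpnmb or Lgals3 positive over member nuclei with at least 50 UMIs, the 10 of largest ratio over all other nuclei, and the genes of 30 lists. Some genes that these rules and lists name are not reported here, although counts and sums over a list include them. The genotype comparison was not run, since no source used here ties a library to a mouse, and a count of genes by fold was not made for the Gpnmb or Lgals3 positive nuclei, where 10 CPM is 0.606 UMI. Alternatives changed the rule, the filter on low values, the fold, the scaling, the weight of nuclei, the depth, the microglia rule and the libraries included.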

Additional observations from a re-analysis of the deposited data

How the results depend on the processing

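No paired analysis was possible because the barcode suffixes are not tied to mice, which leaves no genotype groups to pair. Members and microglia nuclei were set side by side within each library without a test, since both were chosen by expression. The share of members, 0.220% of nuclei, was 0.123% when all 3 defining genes were demanded, 0.101% with 0 UMIs of every excluded gene, 0.158% without nuclei of 10 or more marker UMIs of another cell type (120 members, an alternative added after seeing the data) and 0.186% to 0.244% with each library left out, lowest without library 5. The planned exclusion of nuclei with 2 or more such UMIs left 2 members (0.00264%), since nearly all nuclei carry them, and its counts (1218 genes higher, 6768 lower) rest on those. The 742 higher genes became 182 at a mean of 50 CPM, 2936 with no filter, 1889 at 1.5-fold, 1466 with a stricter microglia rule, 1161 after thinning and 758 to 899 with each library left out. The 416 lower genes became 134, 4955, 1169, 918 and 931 under the same settings, 792 with all 3 genes, 769 with 0 excluded UMIs, 651 without the 10% deepest members, 638 with nuclei weighted equally, 881 without nuclei of 10 or more marker UMIs and 423 to 604 with each library left out. Settings that left 93 and 77 members gave 1035 and 1091 higher genes. Centring on the median ratio gave 607 higher and 510 lower.

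The MHC class II list turned to a log2 ratio of -1.53 when all 3 defining genes were demanded and was 0.11 without nuclei of 10 or more marker UMIs. Klf4 turned to -0.16 with 0 excluded UMIs, Cd68 to -0.12 with the stricter microglia rule, Col1a1 to -0.40 without nuclei of 10 or more marker UMIs, and Mog to -0.22 without the deepest members. The choroid plexus list turned to -0.17 without library 2. With 2 members left, the neutrophil list turned to 1.22, Csf3r to 1.28 and Smad3 to 2.13. For these the cause was not tested. Of 103 gene ratios of at least 2-fold, 75 stayed at least 2-fold in every alternative that left more than 2 members and gave a value for the gene, which was 9 to 16 alternatives a gene, and 4 changed direction in some. Of 19 lists under 2-fold, 8 changed direction in some, among them the pan-myeloid, lysosomal cholesterol egress and lysosomal enzyme lists. The alternatives planned for the genotype comparison and for a count of genes in the Gpnmb or Lgals3 positive nuclei were not run.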
